A study of Salmo salar with 189 samples.

Results

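The time of day at which clock genes peaked in the optic tectum (OT) of Atlantic salmon was compared with that in the saccus vasculosus (SV) of the same fish. The OT is the roof of the midbrain, where visual input is processed, and the SV is a vascular sac on the floor of the hypothalamus of fishes that has been proposed to take part in responses to day length. The comparison used 21 OT samples and 21 SV samples, 42 of the 189 samples of the series, from 21 pre-smolt fish, with 3 fish at each of 7 time points. Members were the 38 of 48 entries of the gene table that had a signal in every one of these samples in both tissues. A further 7 entries had such a signal only in OT samples, 2 only in SV samples and 1 in neither.

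By their labels, the fish were raised under constant light (LL) and then held for 8 weeks on a light-dark cycle (LD) of 8 h light and 16 h dark at 14 °C, with food withdrawn 48 h before the first sampling. The study's methods give a shorter light phase. Time is zeitgeber time (ZT, hours after lights on). ZT5, ZT9, ZT13, ZT17 and ZT21 carry the label LD, and the last time points, CT1 and CT5 (circadian time), carry the label LL. The study's methods close the diel series with these fish, and both times fall in hours when lights were on in the cycle. OT RNA was extracted with a mini kit and SV RNA with a micro kit, so kit and tissue cannot be told apart. In pieces of whole tissue, fewer cells of a type and less RNA per cell cannot be told apart either. The gene set holds clock genes and no cell type marker, so the identity of the tissues rests on the labels, and levels were not compared between tissues.

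In the vertebrate clock, CLOCK and ARNTL1 (BMAL1) proteins bind DNA together and drive transcription of the Per, Cry, Nr1d and PAR bZIP genes. PER and CRY proteins then repress CLOCK and ARNTL1, while NR1D (REV-ERB) repressors and ROR activators compete at response elements that control Arntl1. Salmon carry many of these genes as ohnologue pairs left by a genome duplication of their own. Each copy is named here by gene and chromosome as the study does, and 2 of these names differ from the RefSeq chromosome. RefSeq's annotation places Rora-Ch26-1 on chromosome 11 and Per1-Ch6 on chromosome 7. The table itself carries some other names for the same genes, such as Arntl1a, Cry1a, Per1a and Per1b, and gives Cry3 as Cry1bb.

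Each gene was counted by NanoString hybridisation, in which a barcoded probe pair binds a target in the mRNA, listed with 100 bases for every gene but Dbp-Ch5-1, which has 87. Whether the copies of a pair can be told apart rests on those targets. Over 46 targets of the set, the longest run of bases that a target shares with any other was between 8 and 12. The following lines give 30 bases of the target, 5′ to 3′, for 7 of the 8 genes described sample by sample, with capitals marking the longest run shared with the nearest other target. The 8 genes were the 5 rhythmic in both tissues, and the genes with the smallest p for a different peak time that brought the number to 8.
Per1-Ch4, chromosome 4, transcript bases 61 to 90, run of 11 shared with Per3-Ch22: ttacttgtctTGCAGTCTGTCagcttggac
Per1-Ch11, chromosome 11, bases 3793 to 3822, run of 9 shared with Per1-Ch6: acaatcccaacccaacattacCGTTCCCAA
Ciart-Ch14, chromosome 14, bases 1271 to 1300, run of 8 shared with Rora-Ch16: gggaatccaaaGGAGGAGTcaatctattcc
Per2-Ch14, chromosome 14, bases 4770 to 4799, run of 8 shared with Arntl1-Ch11: caattattcaccaagtcccaCCCTCAGCtg
Tef-Ch6, chromosome 6, bases 1570 to 1599, run of 11 shared with Tef-Ch3: attgatattgGTCAGAGAAAGggcgagatg
Arntl1-Ch11, chromosome 11, bases 1888 to 1917, run of 9 shared with Rora-Ch10: gaACATCCCTCagcagggctgataccggga
Arntl1-Ch26, chromosome 26, bases 2881 to 2910, run of 9 shared with Nr1d1-Ch3: attatgggggcACACCATTTctcgtcaccc
Among the targets of the set, those of the Arntl1 copies on chromosomes 11 and 26 had their closest matches outside their own family. The closest match of the Tef-Ch6 target was the target of the Tef copy of chromosome 3. Targets were compared only with each other, and not with the transcript of the other copy of a pair. Copies can have targets at distant transcript positions, as Per1-Ch4 and Per1-Ch11 do. A short shared run therefore cannot show whether a probe also binds the other copy, which was not tested.

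Total barcodes per sample, read from the step between the deposited values, were 26487 to 44887 in the OT (median 31194) and 10385 to 20679 in the SV (median 15116). The SV values of most genes therefore carry more counting error. The exceptions, with more barcodes on average in the SV, were Per2-Ch3, Hlf-Ch1, Hlf-Ch28 and Cry4-Ch13. The geometric mean of the 38 genes also moved over the day. In the OT it was lowest at CT5 (398.87 ± 47.01) and highest at ZT17 (555.31 ± 79.38), and in the SV it was lowest at ZT5 (133.94 ± 23.02) and highest at ZT17 (197.95 ± 18.48; SD, n = 3). In the SV of 1 fish at ZT21, fish A21, it was 212.73, against 127.12 and 128.58 in the other fish of that time point. The deposited values were scaled to spiked-in controls and not to reference genes, so whether these shifts came from RNA input or from the genes themselves cannot be told apart. Peak times are therefore given as deposited, and also after each sample was divided by its own geometric mean (scaling) where that changed a call.

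**Figure D1:**
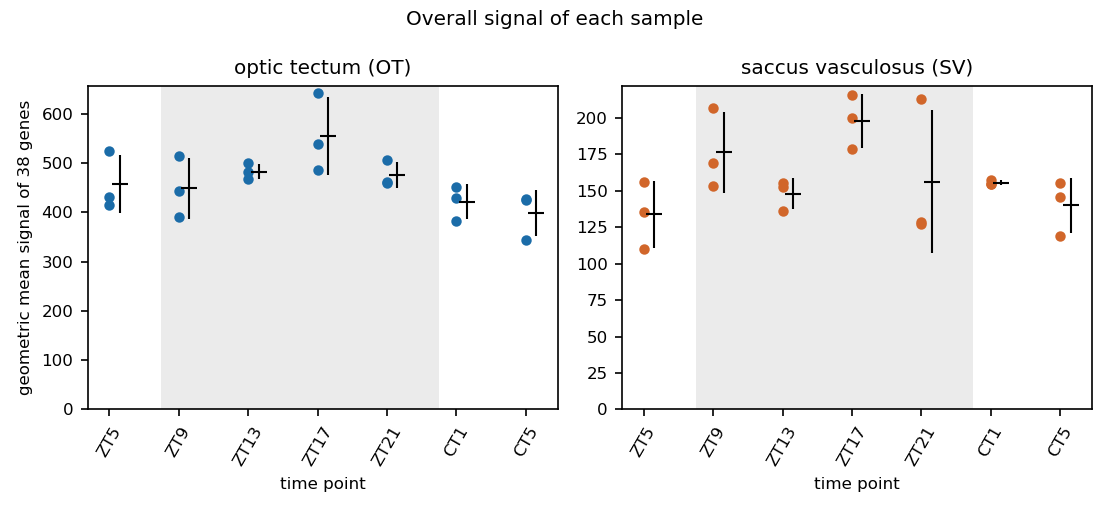
Geometric mean signal of the 38 genes in each sample (points) by sampling time, with the mean and SD of 3 fish (bars), OT left and SV right. Both tissues had their highest mean at ZT17, 555.31 for OT and 197.95 for SV. Fish A21 stood above the other SV samples of ZT21.

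The fitted peak came earlier in the OT than in the SV for most genes that cycled in both tissues, by about 2 h at the median, but no single gene passed the test of a different peak time. A 24 h cosine was fitted to log2(signal + 1). In both tissues, 13 of 38 genes (34.2%) had a 24 h component (permutation p under 0.05 in each, not adjusted over genes). Over those 13 genes the median difference in peak time was -2.14 h (OT minus SV, negative where the OT was earlier), with a range of -5.74 to 0.96 h. The OT peak was the earlier one in 11 of the 13, against 24 of all 38 genes, and the exceptions were Tef-Ch3 and Tef-Ch6, of which Tef-Ch6 changed sign after scaling (-0.005 h). The SE of a difference was 0.83 to 1.58 h in these 13 genes, and the samples were 4 h apart. Over the other 25 genes, whose peaks are poorly placed (median SE 3.58 h), the median difference was -0.13 h and the OT peak was earlier in 13. After scaling, 20 genes had a 24 h component in both tissues, and the OT peak was earlier in 16 of them. These 20 held all of the 13 but Dbp-Ch5-1.

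In the test of the difference itself, 0 of 38 genes (0.0%) had a different peak time after Benjamini-Hochberg adjustment (extra sum-of-squares statistic, 100000 permutations of residuals, smallest adjusted p = 0.324). At an unadjusted p under 0.05 there were 4 genes (10.5%), Ciart-Ch14, Arntl1-Ch26, Nr1d1-Ch6 and Per1-Ch4, and in all 4 the OT peak was earlier. After scaling by the geometric mean, 8 genes (21.1%) passed, and the OT peak was earlier in 7 of them, the exception being Clock-Ch23. That count rests on few fish, since it was 0 when the fish numbered replicate 2 at each time point were left out, 2 without replicate 3 and 6 without replicate 1. Without fish A21 in either tissue, the unscaled median difference of the 13 genes was -1.18 h, and the OT peak was earlier in 10. A test of amplitude and peak time together, the limma F test of the tissue by 24 h interaction, called 4 of 38 genes (10.5%), namely Per1-Ch4 (adjusted p = 2.5e-05), Ciart-Ch14 (0.00118), Per1-Ch11 (0.00228) and Arntl1-Ch26 (0.0393).

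**Figure D2:**
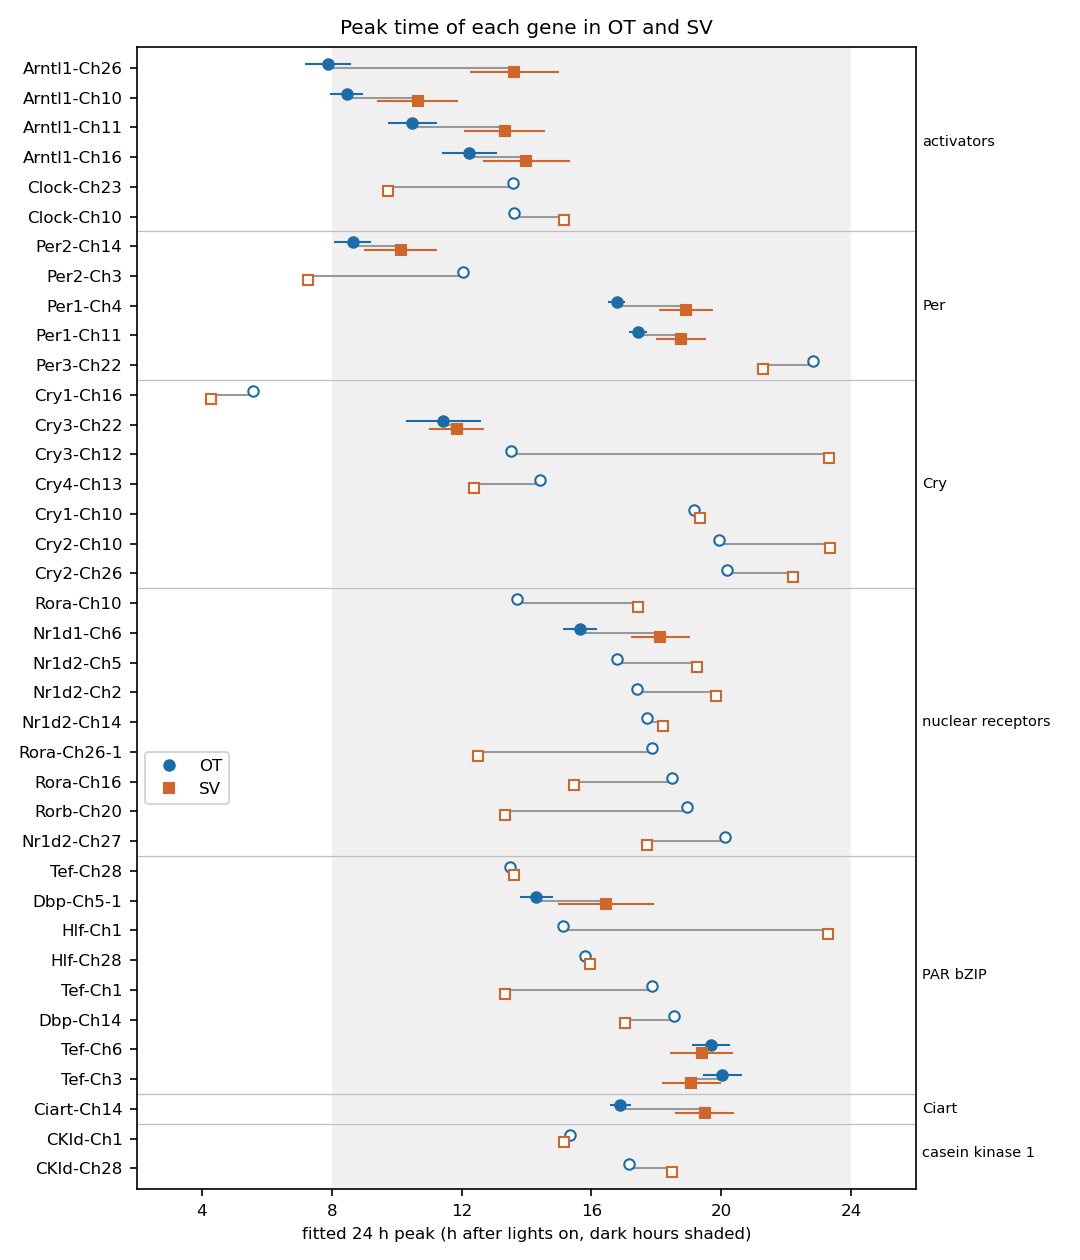
Fitted 24 h peak time in hours after lights on (horizontal axis) for 38 genes by family, OT circles and SV squares, filled with SE bars for the 13 genes with a 24 h component in both tissues and open for the rest. OT circles lie left of the SV squares in 11 of those 13 genes.

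**Figure D3:**
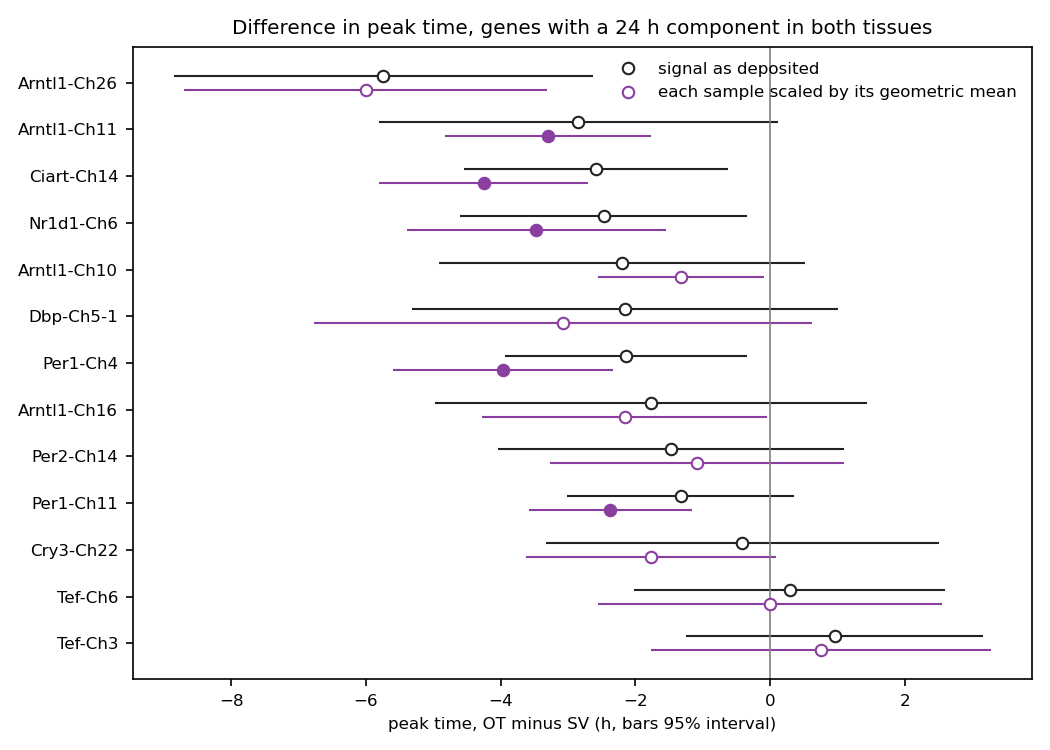
Peak time difference (OT minus SV, h) with its 95% interval for the 13 genes, as deposited (black) and after division by the geometric mean of the sample (purple), filled where the adjusted permutation p was under 0.05. As deposited, no gene is filled and the values run from -5.74 h for Arntl1-Ch26 to 0.96 h for Tef-Ch3.

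The order of the peaks through the day was broadly shared. In the OT the 13 peaks ran from 7.89 h (Arntl1-Ch26) to 20.04 h (Tef-Ch3), and in the SV from 10.12 h (Per2-Ch14) to 19.49 h (Ciart-Ch14). In both tissues Per2-Ch14, the Arntl1 copies and Cry3-Ch22 had the earlier peaks, Dbp-Ch5-1 and Nr1d1-Ch6 followed, and the Per1 copies, Ciart-Ch14 and the Tef copies peaked last. By the light phase of 8 h in the labels, all these fitted peaks fell in the dark hours except that of Arntl1-Ch26 in the OT. Many neighbours in this order lay within 1 SE of each other, such as the Per1 copies of the SV at 18.76 ± 0.78 h (Per1-Ch11) and 18.92 ± 0.84 h (Per1-Ch4). The SE of the peak was larger in the SV than in the OT in 12 of the 13 genes, with medians of 0.56 h in the OT and 0.97 h in the SV. As deposited, ZT17 held the highest mean in 21 of all 38 genes in the OT and 23 in the SV. The geometric mean was also highest at ZT17 in both tissues. After scaling, most of these genes had their highest mean at another time point.

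By JTK_CYCLE, the rank test for rhythms that the study used (p adjusted over the curves tried for a gene), 18 of the 38 genes (47.4%) were rhythmic in the OT and 7 (18.4%) in the SV. The 5 rhythmic in both (13.2%) were Per1-Ch4, Per1-Ch11, Per2-Ch14, Nr1d1-Ch6 and Tef-Ch6. Their median absolute difference in peak time was 1.47 h, and 4 of the 5 had their highest mean at the same time point in both tissues. After scaling, Per1-Ch11 still had it at ZT17 in both. Per1-Ch4 and Nr1d1-Ch6 then had it at ZT17 in the OT and ZT21 in the SV, and Tef-Ch6 at CT1 and ZT21.

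**Figure D4:**
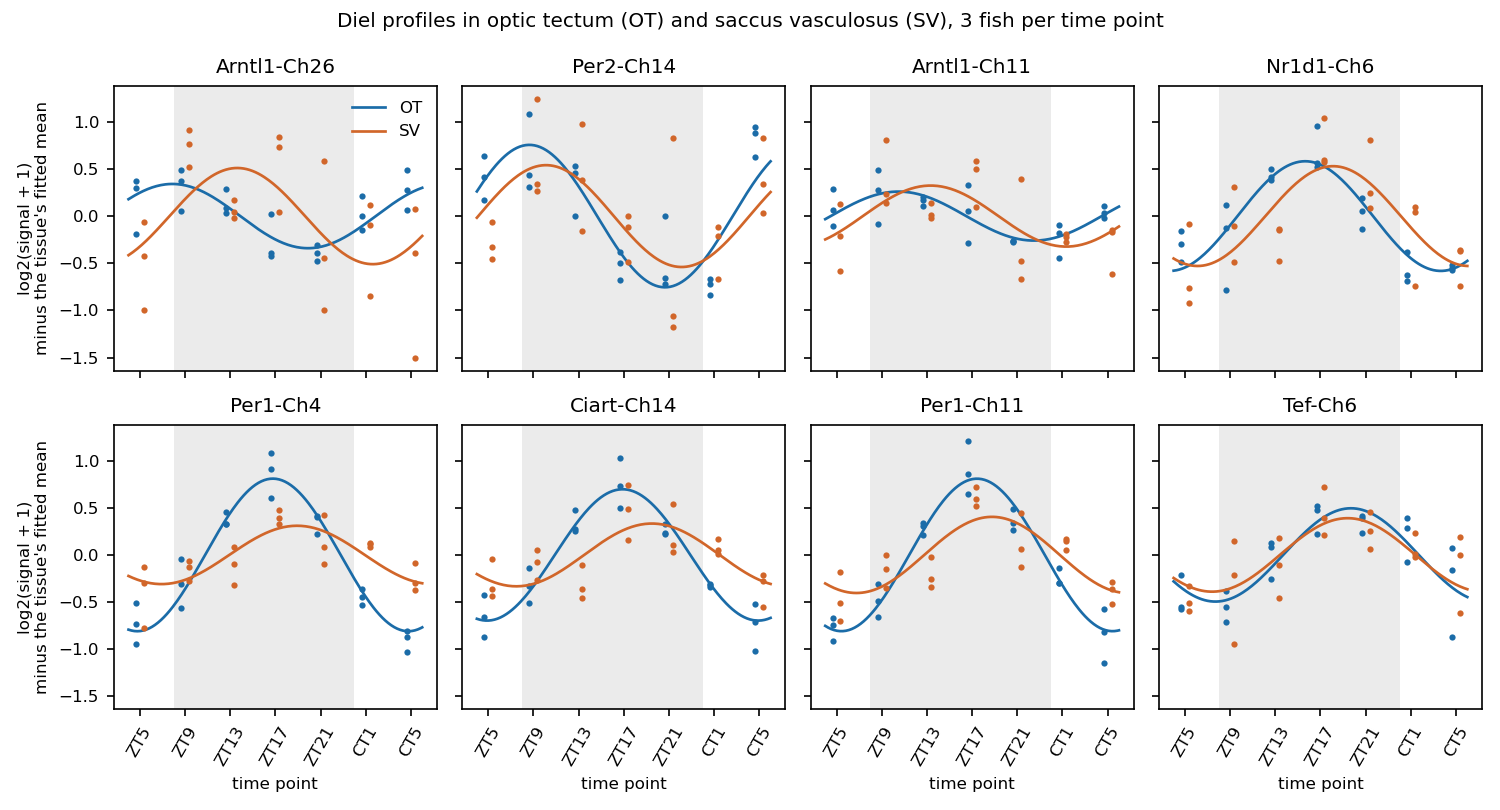
log2(signal + 1) minus the fitted mean of the tissue for 8 genes over the diel series (hours after lights on of the first day), with a point for each fish, the fitted 24 h cosine for each tissue, and shading for the dark hours the labels give. The Per1 and Ciart curves turn down sooner in the OT than in the SV, and the Tef-Ch6 curves nearly overlie each other.

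Among the Per genes, whose proteins are rhythmic repressors of the clock, 5 had a signal in both tissues, 3 cycled in both, and all 3 peaked earlier in the OT. Per1-Ch4 peaked at 16.78 ± 0.26 h in OT samples and at 18.92 ± 0.84 h in SV samples (± SE), a difference of -2.14 h (95% interval -3.94 to -0.35 h, permutation p = 0.0341, adjusted p = 0.324). After scaling the difference was -3.96 h (adjusted permutation p = 0.0161), and over the samples labelled LD alone it was -1.03 h. At ZT17 its signal was 1550.23, 1375.16 and 1109.81 in the OT, above every other OT sample, and 788.5, 715.03 and 743.5 in the SV, where fish A21 of ZT21 reached 761.96.

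The tissues parted on the flanks of that peak. At ZT13 Per1-Ch4 stood at 918.05, 1004.05 and 921.11 in the OT, and at CT1 it stood at 507.26, 569.25 and 535.7, so every ZT13 fish was above every CT1 fish. In the SV the order was turned round, with 601.6, 531.06 and 453.66 at ZT13 and 620.08, 603.73 and 617.43 at CT1. The turn was narrow, with the lowest CT1 fish at 603.73 and the highest ZT13 fish at 601.6. A barcode was worth 0.92 and 0.83 signal units in those samples. Between these time points lie the ZT17 maximum and ZT21, so OT fish were higher on the early flank of the maximum and SV fish on the late one.

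Per1-Ch11, another Per1 copy, behaved in the same manner. Its OT values were 819.41, 877.39 and 895.13 at ZT13 and 577.31, 642.78 and 574.61 at CT1. Its SV values were 407.96, 347.48 and 325.77 at ZT13 and 430.36, 459.46 and 464.57 at CT1. The fitted peaks were 17.43 ± 0.28 h in the OT and 18.76 ± 0.78 h in the SV, and the 95% interval of the difference of -1.33 h held zero (-3.01 to 0.35 h, permutation p = 0.134, adjusted p = 0.675). After scaling it was -2.37 h (95% interval -3.58 to -1.16 h, adjusted permutation p = 0.0162), and over the samples labelled LD alone it was -0.66 h. The peak at ZT17 was 1636.36, 1283.05 and 1105.85 in the OT and 625.5, 592.06 and 681.47 in the SV, above all other samples of the same tissue in both.

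Ciart-Ch14, which encodes a repressor of CLOCK and ARNTL1 known from mammals as CHRONO, showed the same turn. It stood at 433.8, 499.7 and 429.71 at ZT13 and 283.83, 289.64 and 288.66 at CT1 in the OT. In the SV it stood at 158.88, 133.0 and 124.68 at ZT13 and 192.04, 172.76 and 176.84 at CT1. Its peak was at 16.90 ± 0.31 h in the OT and 19.49 ± 0.91 h in the SV, a difference of -2.59 h (95% interval -4.55 to -0.63 h, permutation p = 0.0245, adjusted p = 0.324). After scaling, the difference was -4.25 h and the adjusted p 0.00747.

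The contrast of ZT13 with CT1 was chosen after these values were seen and was given no test. Over all 38 genes, every ZT13 fish was above every CT1 fish in the OT for 14 (36.8%), and every CT1 fish was above every ZT13 fish in the SV for 10 (26.3%). Both orders held for 4 genes (10.5%), Per1-Ch4, Per1-Ch11, Ciart-Ch14 and Rora-Ch10. With those shares an overlap of about this size is had in unrelated tissues too, so it is no result by itself. The opposite pair of orders held for 0, but each of its parts was rare. CT1 was above ZT13 in the OT for 3 genes (7.89%), and ZT13 above CT1 in the SV for 3 (7.89%). The geometric mean turned the same way, from 483.0 at ZT13 to 421.41 at CT1 in the OT and from 147.95 to 155.4 in the SV. For Per1-Ch4 the SV order held by a narrow margin as deposited (603.73 against 601.6), and the margin was narrow after scaling as well. After scaling by the geometric mean both orders still held for 3, Per1-Ch4, Per1-Ch11 and Ciart-Ch14.

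Per2-Ch14, a copy of a gene known from zebrafish to respond to light, peaked much earlier in the cycle than the Per1 copies. Its fitted peak was 8.65 ± 0.56 h in the OT and 10.12 ± 1.14 h in the SV, and the difference of -1.47 h had a 95% interval of -4.04 to 1.10 h (permutation p = 0.269, adjusted p = 0.72). In the OT it was highest at CT5, with 191.59, 227.7 and 237.6, and lowest at CT1, with 77.3, 74.64 and 68.77. In the SV it was highest at ZT9, with 130.48, 65.84 and 69.57, and at CT1 it was 50.13, 46.86 and 33.97. In the SV at CT5 it was 55.66, 97.63 and 69.22, so every CT5 fish was above every CT1 fish in both tissues. At ZT5, the same hour a day before, its SV values of 52.13, 43.15 and 39.44 overlapped those of CT1. The SV fish of ZT9 overlapped those of CT5, so the later SV peak is not separated by the fish. Of the remaining Per genes, Per3-Ch22 peaked at 22.84 h in the OT and had no 24 h component in the SV. Per2-Ch3 had one in the OT alone. As deposited, both fitted peaks were later in the OT. The difference was 4.77 h for Per2-Ch3 (95% interval 0.34 to 9.20 h) and 1.54 h for Per3-Ch22 (-4.03 to 7.11 h). After scaling both genes had a component in both tissues. The difference was then 3.80 h for Per2-Ch3 (95% interval 0.92 to 6.67 h, adjusted permutation p = 0.0569) and -0.70 h for Per3-Ch22 (-3.34 to 1.94 h).

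The activators were represented by 4 Arntl1 and 2 Clock copies. All 4 Arntl1 copies had a 24 h component in both tissues, and all 4 fitted peaks were earlier in the OT. In the SV the permutation p of that component was 0.0301 to 0.0439, not adjusted over genes. JTK_CYCLE called none of them in the SV, and Arntl1-Ch10 and Arntl1-Ch26 in the OT. The differences were -2.20 h for Arntl1-Ch10, -2.85 h for Arntl1-Ch11, -1.76 h for Arntl1-Ch16 and -5.74 h for Arntl1-Ch26. The 95% interval held zero for Arntl1-Ch10 (-4.91 to 0.52 h), Arntl1-Ch16 (-4.97 to 1.44 h) and Arntl1-Ch11. Neither Clock copy had a component in both as deposited, and after scaling both copies had. Clock-Ch23 was then called with the later peak in the OT, at 10.15 ± 0.98 h in the OT and 5.67 ± 1.11 h in the SV (difference 4.48 h, 95% interval 1.48 to 7.48 h, adjusted permutation p = 0.0274). Clock-Ch10 went the other way and was not called (difference -6.84 h, 95% interval -10.88 to -2.80 h, adjusted permutation p = 0.0713). The Clock-Ch23 call was lost without replicate 1, 2 or 3. It was also lost when samples were scaled by the 13 genes with no 24 h component in either tissue (adjusted permutation p = 0.146).

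Arntl1-Ch26 had the largest difference of the 13 genes, with a peak at 7.89 ± 0.70 h in the OT and 13.63 ± 1.36 h in the SV (95% interval -8.85 to -2.63 h, permutation p = 0.0275, adjusted p = 0.324). At ZT5 its signal was 146.99, 154.7 and 104.45 in the OT and 18.95, 24.55 and 12.37 in the SV. At ZT17 it was 121.67, 91.03 and 88.72 in the OT and 26.5, 43.16 and 46.73 in the SV. As deposited, both tissues had their highest mean at ZT9, and they parted at ZT17. There the SV fish were all above those of ZT5, and the OT fish overlapped those of ZT5 with a lower mean. After scaling the SV fish of ZT17 and ZT5 overlapped too, and the highest OT mean was at hour 5. Its level in the SV was low, with a mean of 27.4 signal units, and it dropped out where a mean of 50 in both tissues was required. With a variance pooled over the tissues in place of one for each, it was the only gene called (adjusted permutation p = 0.016), and after scaling its adjusted p was 0.0611.

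Arntl1-Ch11 peaked at 10.48 ± 0.76 h in the OT and 13.33 ± 1.25 h in the SV (95% interval of the difference -5.81 to 0.11 h, permutation p = 0.0588, adjusted p = 0.42). At ZT9 it stood at 910.25, 611.5 and 785.28 in the OT and 289.95, 182.16 and 195.39 in the SV. At ZT17 it stood at 817.5, 671.87 and 529.95 in the OT and 176.65, 235.36 and 248.97 in the SV. These time points overlapped within each tissue, so neither time point stood apart from the other. ZT21 was low in the OT, at 538.04, 537.74 and 537.49, and in the SV 2 fish were low with 118.64 and 103.6, and fish A21 read 217.7. After scaling the difference was -3.30 h with an adjusted p of 0.00646.

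Nr1d1-Ch6 encodes REV-ERB alpha, a repressor of Arntl1. It peaked at 15.65 ± 0.52 h in the OT and 18.12 ± 0.91 h in the SV, a difference of -2.47 h (95% interval -4.60 to -0.34 h, permutation p = 0.0311, adjusted p = 0.324). At ZT13 it stood at 230.91, 245.2 and 227.3 in the OT, above every CT1 fish with 112.32, 132.57 and 107.68. In the SV it stood at 33.93, 33.72 and 26.54 at ZT13 and at 40.1, 38.59 and 21.98 at CT1, which overlapped, so the order was not turned round as in the Per1 copies. After scaling the difference was -3.47 h with an adjusted p of 0.0163. With and without scaling it was the only one of the 9 nuclear receptor genes with a 24 h component in both tissues. In the 4 Nr1d2 copies the differences ran from -2.47 to 2.42 h as deposited and every 95% interval held zero. None of the 4 Ror genes, whose products activate Arntl1, had a 24 h component in either tissue as deposited, and after scaling Rora-Ch16 had one in the OT (permutation p = 0.00224).

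**Figure D5:**
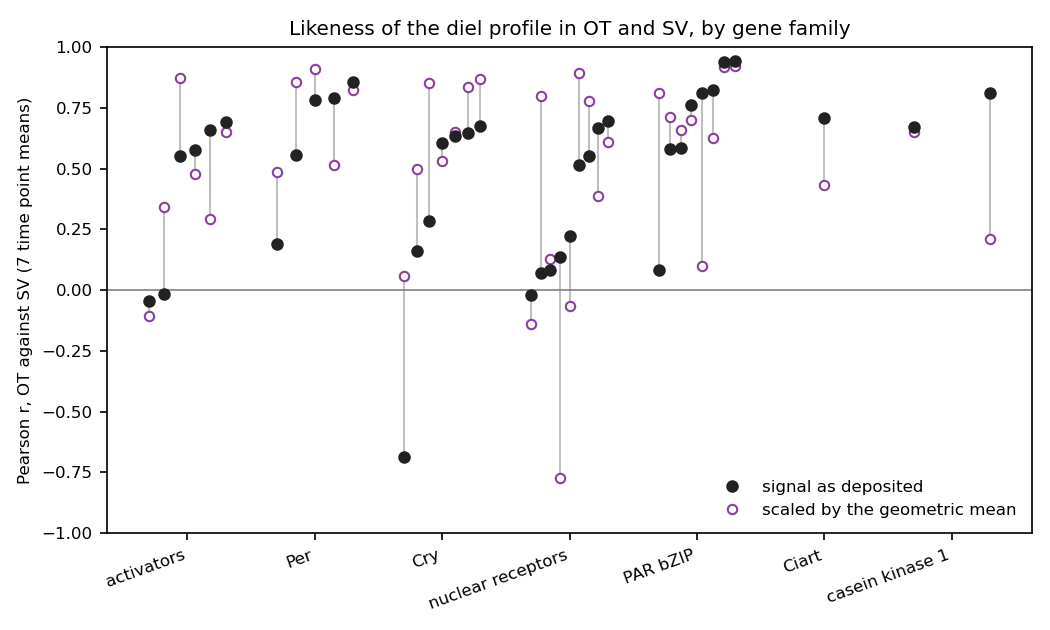
Pearson correlation between the OT and SV time-point means of log2(signal + 1) over 7 time points for each of 38 genes by family, as deposited (black) and after division by the geometric mean of the sample (open purple). Values run from -0.686 (Cry3-Ch12) to 0.944 (Tef-Ch3) as deposited.

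Tef-Ch6 and Tef-Ch3, which encode the PAR bZIP activator TEF that acts on D-box elements, had the most similar profiles. Tef-Ch6 peaked at 19.70 ± 0.59 h in the OT and 19.41 ± 0.97 h in the SV, and the 95% interval of the difference of 0.29 h was -2.02 to 2.60 h (permutation p = 0.798, adjusted p = 0.919). At ZT17 it stood at 2339.02, 1903.98 and 2263.99 in the OT and 393.45, 349.37 and 494.53 in the SV. At ZT5 it stood at 1112.08, 1409.22 and 1097.96 in the OT and 238.29, 210.52 and 198.75 in the SV, below every ZT17 fish of the same tissue. Its time-point means spanned 1.94-fold in the OT and 1.91-fold in the SV. Tef-Ch3 peaked at 20.04 ± 0.60 h in the OT and 19.08 ± 0.91 h in the SV (difference 0.96 h, 95% interval -1.25 to 3.16 h). These intervals still admit a shift of an hour or more in either direction. They take the tissues as independent, although the same fish gave both. Dbp-Ch5-1 was another PAR bZIP gene with a component in both. It peaked at 14.30 ± 0.52 h in the OT and 16.46 ± 1.47 h in the SV. The difference of -2.15 h had a 95% interval of -5.31 to 1.01 h (permutation p = 0.178, adjusted p = 0.678). Its mean SV signal was low, at 38.9, and JTK_CYCLE did not call it in the SV. After scaling it had no 24 h component in the SV (permutation p = 0.0793).

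The remaining families gave fewer placed peaks. Of 7 Cry genes, which encode repressors that partner PER proteins, Cry3-Ch22 alone had a 24 h component in both tissues as deposited, with peaks at 11.44 h in the OT and 11.85 h in the SV (difference -0.41 h, 95% interval -3.33 to 2.5 h). After scaling its difference was -1.77 h and was not called. Both Cry2 copies then had a component in both tissues and an earlier peak in the OT. The differences were -3.56 h for Cry2-Ch10 (adjusted permutation p = 0.00646) and -3.18 h for Cry2-Ch26 (adjusted permutation p = 0.0457). The Cry2-Ch26 call was lost without replicate 2, replicate 3 or fish A21. Scaled by the genes with no 24 h component, it was not called either (adjusted permutation p = 0.112). Cry1-Ch16 also had a component in both after scaling, with a later fitted peak in the OT (difference 0.89 h, 95% interval -1.64 to 3.42 h). Hlf-Ch28, a PAR bZIP gene, was rhythmic in the SV and not in the OT by JTK_CYCLE, and in the limma test of the difference in profile it had an adjusted p of 0.0826, or 0.0423 with fish as a block. The casein kinase 1 genes CKId-Ch1 and CKId-Ch28, kinases of PER proteins, had a 24 h component in both tissues in 0 of 2 cases. The name CKId-Ch1 is not in the list of targets, which holds CKIe-Ch1, so the gene behind that entry is uncertain.

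The shape of the profile was compared through the 7 time-point means of each tissue, as a description, because both tissues share fish and light cycle and because the overall level enters every gene. The median Pearson r over 38 genes was 0.596 (median Spearman rho 0.464), r was above 0 in 34 genes and above 0.5 in 26. Without the fish numbered replicate 1 the median r was 0.357 and 13 genes were above 0.5. The 3 highest were Tef-Ch3 (0.944), Tef-Ch6 (0.94) and Per1-Ch11 (0.854), and the 3 lowest were Cry3-Ch12 (-0.686), Arntl1-Ch26 (-0.045) and Rora-Ch26-1 (-0.021). The low end changed with scaling, after which Cry3-Ch12 had r = 0.056 and Rora-Ch16 was lowest at -0.772, against 0.134 as deposited. As deposited, median r was highest in the PAR bZIP genes (0.787, n = 8) and Per genes (0.783, n = 5), with Ciart-Ch14 at 0.709. It was 0.741 over the 2 casein kinase genes, 0.607 in the Cry genes, 0.564 in the activators and 0.222 in the nuclear receptors (n = 9). The order of the families changed with scaling, after which r was 0.432 for Ciart-Ch14, 0.210 for CKId-Ch1 and 0.652 for CKId-Ch28. Cry3-Ch12 had its lowest OT mean at CT1, 71.75 ± 21.45, and its highest SV mean there, 42.18 ± 5.98 (SD, n = 3), but as deposited it had no 24 h component in either tissue.

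Since each fish gave both tissues, the deviation of a fish from the mean of its time point could also be set side by side in the OT and SV. Tef-Ch3 and Tef-Ch6 deviated together, so that a fish high in the OT for its time of day was high in the SV as well. Of 38 genes these 2 (5.26%) passed after adjustment over the 38 (exact permutation test of fish within time points, two-sided, 279936 reassignments), and 7 had an unadjusted p under 0.05. Tef-Ch3 had r = 0.819 over 21 fish (exact permutation p = 0.000554, adjusted p = 0.0202) and rho = 0.71 (exact permutation p = 0.00132, adjusted p = 0.0397), and r was 0.716 without the 2 fish farthest from the OT median. Tef-Ch6 had r = 0.737 (exact permutation p = 0.00106, adjusted p = 0.0202), rho = 0.731 (exact permutation p = 0.00221, adjusted p = 0.0397) and r = 0.694 without the 2 farthest fish. At CT5, for example, the 3 fish read 1717.29, 894.07 and 1454.68 for Tef-Ch6 in the OT and 342.99, 195.27 and 300.28 in the SV, in the same order of fish. By rho Rora-Ch26-1 passed too (rho = 0.686, exact permutation adjusted p = 0.0397), and by r it did not (r = 0.665, exact permutation adjusted p = 0.069). Per2-Ch14 had r = 0.798 and missed the threshold (exact permutation adjusted p = 0.0717).

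This relation was examined after the values were seen, and the genes that passed changed with the scaling. After scaling by the geometric mean, Tef-Ch3 had an exact permutation adjusted p of 0.171 and Tef-Ch6 of 0.187 by r. By r, 3 other genes passed, Nr1d2-Ch2 (r = 0.825, adjusted p = 0.0281), Per2-Ch14 (r = 0.828, adjusted p = 0.0406) and Nr1d2-Ch5 (r = 0.746, adjusted p = 0.0432). By rho, 4 genes passed after scaling, those 3 and Tef-Ch3 (rho = 0.699, exact permutation adjusted p = 0.0475). Without fish A21 the unscaled calls by r were again Tef-Ch3 (r = 0.873) and Tef-Ch6 (r = 0.738), and by rho Tef-Ch3 alone passed. With and without scaling r was positive in each of the 5 genes called by r in either. They were picked for a high r in these same values, so the shared sign is no separate support.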

How the data were processed

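RNA of the OT and SV was measured with a NanoString CodeSet of clock genes. The deposited signal values were made by the authors in nSolver 4.0 by normalising barcode counts to spiked-in positive controls. Whether the tissues were normalised together is not given in the sources used here. Groups follow the labels, except that CT1 and CT5 labelled LL were joined to the diel series after the study's methods. All columns used belonged to the series (0 columns of other samples left out).

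Values were used as log2(signal + 1). A 24 h cosinor was fitted in each tissue by least squares (Python 3.11.15, numpy 2.4.6, scipy 1.17.1, pandas 2.3.3), with delta-method SEs for peaks. A different peak time was tested by an extra sum-of-squares statistic, 1 shared peak against 1 per tissue, with means and amplitudes free and each tissue weighted by its own variance. Its p came from 100000 permutations of residuals within tissue, two-sided, the smallest possible being 1e-05. Different profiles were tested with limma 3.58.1 in R 4.3.3 (F test of the tissue by cosine and sine interaction). Both were adjusted by Benjamini-Hochberg over the 38 genes at 0.05. JTK_CYCLE was rewritten in Python (cosine curves of 20 h and 24 h, 11 in all, with Bonferroni adjustment within a gene). Points of equal height in a curve were given equal rank, which makes its p-values approximate and mostly conservative. The tests were tried on simulated data.

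The labels give the same fish for both tissues, which pairs the samples. The correlation of the tissues of a fish was 0.151 over all genes (limma), and the median over genes of the same-fish correlation was 0.076. The methods name no pairing, so fish was no block in the tests, and the block was an alternative. Members, gene lists and comparisons were chosen with earlier results of these data known. Values by fish are given for genes rhythmic in both tissues by JTK_CYCLE, genes called for peak time, and the next smallest p until there were 8, and the 3 highest and lowest correlations are named. The added scalings, the run without fish A21, the contrast of ZT13 with CT1 and the same-fish correlations were chosen after seeing the data. Target sequences come from the study's list of targets. Its 46 gene identifiers were all found in RefSeq's annotation of Ssal_v3.1, used for names and chromosomes only. The chromosome there differed from the name for Rora-Ch26-1 and Per1-Ch6. The target of Nr1d1-Ch6 is not reported here.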

Additional observations from a re-analysis of the deposited data

Results flagged for a closer look

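In 4 genes the diel profile itself differed between OT and SV by the limma F test of the tissue by 24 h interaction, adjusted over 38 genes. They were Per1-Ch4 (adjusted p = 2.5e-05), Ciart-Ch14 (0.00118), Per1-Ch11 (0.00228) and Arntl1-Ch26 (0.0393). The test reads amplitude and peak time together, and it does not say which of them differed. The OT cosine of Per1-Ch4 had the larger fitted amplitude, 0.81 ± 0.05 log2 units against 0.31 ± 0.06 for the SV cosine (± SE). The same order held for Per1-Ch11 (0.81 ± 0.05 against 0.40 ± 0.08) and Ciart-Ch14 (0.70 ± 0.05 against 0.33 ± 0.08). Arntl1-Ch26 had the reverse order, 0.34 ± 0.06 against 0.51 ± 0.19. Amplitude alone was not tested. As deposited, none of the 4 passed the peak time test with a variance for each tissue. With the fish numbered replicate 1 left out at each time point, the adjusted p from limma was 0.0827 for Ciart-Ch14 and 0.0827 for Per1-Ch11. Without replicate 2 it was 0.161 for Per1-Ch11 and 0.212 for Arntl1-Ch26, and without replicate 3 it was 0.313 for Arntl1-Ch26. Without the closing time point it was 0.201 for Arntl1-Ch26, which left 3 genes called. Per1-Ch4 passed with any of the 3 left out, and missed the threshold over the samples labelled LD alone.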

How the results depend on the processing

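The count of genes with a different peak time was 0 under every unscaled setting but a variance pooled over the tissues, which gave 1 (38 genes tested, or 30 without genes of low signal). It was 8 after scaling by the geometric mean and 7 after scaling by the 13 genes with no 24 h component, and 6 genes were called under both. Clock-Ch23 and Cry2-Ch26 were called under the first scaling alone. Per2-Ch3, with its later peak in the OT, was called under the second scaling alone. With fish left out, the count after geometric mean scaling ranged from 0 to 7. The count of different profiles was 14 after geometric mean scaling, 13 after the other scaling, 5 with a replicate block by fish, which added Hlf-Ch28, and 2 to 4 with fish left out. It was 0 of 38 by limma over the samples labelled LD alone, where 5 genes had an unadjusted p under 0.05, and the adjusted p was then 0.0978 for Per1-Ch4. The replicate block changed no other call, and under it the peak time count stayed at 0.

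Genes rhythmic in the OT were 11 to 18 with fish left out. Genes rhythmic in the SV were 16 and 12 after the scalings, 4 without the closing time point, 15 by cosinor, 1 after adjustment over genes, and 1 to 6 with fish left out. Genes rhythmic in both were 12 and 10 after the scalings, 2 without the closing time point, 13 by cosinor, 0 by JTK_CYCLE after that adjustment, and 0 to 4 with fish left out. Without replicate 3 no gene was rhythmic in both, so no median difference was had. That median was 2.77 h and 2.64 h after the scalings, 0.776 h without the closing time point, 0.941 to 1.57 h with fish left out, and 0.0 h when read from the highest time point. The median correlation of profiles ranged from 0.357 to 0.689 over all settings. The difference of Tef-Ch6 changed sign, at -0.005 h after scaling, and ranged from -0.004 to 1.152 h with fish left out. SV depth limits genes of low signal: 8 of 38 had a mean under 50 in either tissue, 7 of them in the SV.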
